A study of Rattus norvegicus with 78 samples.

Results

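Spem1, Cby2, Garin1a, Ubqlnl, Nt5c1b, Phkg2, Ms4a14 and Fam229b are 8 of the 14506 genes that the platform annotation named with a single symbol among 29214 probe sets. They are spermatid genes whose transcripts fell among the most between the end of exposure and recovery in rat sperm, and they were selected on those falls. Each gene was found by its platform symbol and was read from its probe set of highest mean over all 78 arrays. Every one of the 8 had only 1 probe set. No numerical threshold stands behind the choice, and no filter on low values was applied.

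The study asked whether transcripts carried by sperm mark damage to the testis after 1,2-dibromo-3-chloropropane (DBCP), a soil fumigant that is toxic to male germ cells. All rats were of the inbred Fischer 344 strain, and each sample was run on 1 array. The groups were DBCP rats after recovery (5 mg/kg/day for 3 months, then a period without the agent; 19 arrays), corn oil rats after recovery (vehicle, 19 arrays), DBCP rats at the end of the 3 months (5 mg/kg/day, 20 arrays) and corn oil rats at the end (vehicle, 20 arrays). No source used here gives the length of the recovery period or the age of the rats, so the change of a group over time also holds the ageing of the rats and any difference in when samples were handled, and these cannot be told apart. The labels call the samples biological replicates, and no sample was measured at both times.

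Spermatids, the haploid cells that follow meiosis, make most of the proteins of the sperm head and tail. Their chromatin is then packed with protamines and transcription stops, so that the RNA of a mature sperm is what is left of stores laid down in spermatids. The 8 genes touch several sides of this last step. Mouse Spem1 is needed for the spermatid to shed its cytoplasm, and its protein binds the ubiquitin receptor UBQLN1 and the import factor RANBP17. Cby2 belongs to the chibby family and is a spermatid protein also known as SPERT or nurit. Garin1a is in a family of Golgi-associated partners of the small GTPase RAB2, from whose membranes the acrosome is built. Ubqlnl is a ubiquilin-like gene, and ubiquilins carry tagged proteins to the proteasome. Nt5c1b encodes a cytosolic nucleotidase that turns AMP into adenosine, and Phkg2 encodes the catalytic subunit of phosphorylase kinase in liver and testis, which switches on glycogen breakdown. Ms4a14 is a testis member of the membrane-spanning MS4A family.

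The stretches before the gene starts were set side by side as a description, and their part in the signals was not tested. RefSeq promoters on the rat build GRCr8 were matched for all 8 genes, and the 250 bases before each start were searched on both strands, as in all 33469 promoters of the table. The motif TGACGTCA, the cAMP response element to which the postmeiotic activator CREM binds, was in 0 of the 8 promoters and in 1.59% of all. A relaxed form with any base in the middle, TGANGTCA, was added after the sequences had been seen. It was in 3 of the 8 promoters (Nt5c1b, Ubqlnl and Garin1a) and in 8.88% of all. The short form TGACG, which overlaps the full element, was in Cby2 alone of the 8 and in 18.2% of all promoters. The last 150 bases before the start are printed for these 4 genes, 5′ to 3′ on the strand of the gene, with the matched letters in capitals.
Nt5c1b, chr6:38858074-38858223, plus strand: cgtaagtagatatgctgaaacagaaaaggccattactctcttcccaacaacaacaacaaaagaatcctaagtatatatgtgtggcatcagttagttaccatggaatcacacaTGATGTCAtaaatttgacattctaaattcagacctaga
Ubqlnl, chr1:168029306-168029455, minus strand: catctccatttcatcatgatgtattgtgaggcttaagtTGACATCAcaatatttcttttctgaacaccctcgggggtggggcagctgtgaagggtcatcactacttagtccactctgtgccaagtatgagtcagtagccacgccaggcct
Garin1a, chr4:58845244-58845393, plus strand: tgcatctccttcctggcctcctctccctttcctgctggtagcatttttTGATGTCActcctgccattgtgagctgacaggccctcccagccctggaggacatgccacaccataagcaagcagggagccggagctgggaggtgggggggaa
Cby2, chr15:57327286-57327435, minus strand: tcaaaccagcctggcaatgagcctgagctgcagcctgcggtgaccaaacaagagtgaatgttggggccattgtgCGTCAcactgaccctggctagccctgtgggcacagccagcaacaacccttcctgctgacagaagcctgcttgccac

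Counted from the start, the match lay at -38 to -31 in Nt5c1b and at -102 to -95 in Garin1a, both on the strand printed. In Ubqlnl (-112 to -105) and in Cby2 (-76 to -72) it was on the opposite strand, so the capitals there are the reverse complement of the motif. The GC content of the searched bases set the 8 genes apart from one another: it was 35.2% in Ms4a14, 35.6% in Nt5c1b and 39.2% in Ubqlnl, between 54.0% (Spem1) and 61.2% (Fam229b) in the other genes, and 51.2% at the median of all promoters. TATAAA, the TATA box, was in 0 of the 8 and in 12.9% of all promoters. CCAAT was found in Fam229b, Ms4a14 and Phkg2 and in 34.0% of all. GGGCGG, the letters of a GC box, was found in Fam229b alone and in 30.5% of all. AACAAT, a SOX-type motif, was in Ms4a14 alone and in 10.3% of all. CACGTG (5.59% of all promoters) and GTTGCC (9.89%) were in none of the 8. Spem1 held none of the motifs searched. A match is a description of letters, and no binding was measured. The 8 genes lie on 6 chromosomes: Ms4a14, Ubqlnl and Phkg2 on chromosome 1, and the others on chromosomes 4 (Garin1a), 6 (Nt5c1b), 10 (Spem1), 15 (Cby2) and 20 (Fam229b).

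The values are log2 signals per probe set as the authors deposited them, with array medians between 6.55 and 6.75 and a highest value of 14.69. Limma was fitted to all 4 groups, and a call means an adjusted p under 0.05 over all 29214 probe sets. All 9 sperm markers (Prm1, Prm2, Tnp1, Tnp2, Akap4, Odf1, Smcp, Ldhc and Gapdhs) lay above the median of all probe sets, as the label sperm asks, although the series is titled as testis. The brightest of them were Smcp and Odf1, at means of 14.13 and 14.12, near the top of the scale. Markers of other cells gave signal too, and Cd74 (11.38), Hbb (11.88), Wfdc10 (11.96) and Dcn (10.51) were bright. Above the median lay 12 of 17 leukocyte, 13 of 18 epididymal and 7 of 11 Sertoli and Leydig markers. Of 14 spermatocyte markers 4 did, led by Tex101 (8.05) and Stag3 (7.70). The median splits all probe sets evenly, so these counts do not by themselves show that a cell type was present. In such bulk RNA, fewer cells of a type and less RNA per cell cannot be told apart.

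All 8 genes were bright. Their means over the 78 arrays lay between the 89.9th percentile of probe set means for Cby2 and the 98.9th for Ubqlnl. The order of the groups was the same in general shape for each: the DBCP rats at the end had the highest mean, the corn oil rats at the end came next, and the groups after recovery lay together below them. The groups overlapped for each of the 8 genes in every comparison of DBCP with corn oil and of recovery with the end of exposure.

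Spem1, the gene of cytoplasm removal, had a lowest value of 7.20, a median of 7.77 and a highest of 9.09 in DBCP rats after recovery. The same 3 values were 7.32, 7.83 and 8.36 in corn oil rats after recovery. At the end of exposure they were 7.99, 8.78 and 10.49 in DBCP rats and 7.23, 8.54 and 9.31 in corn oil rats. The groups after recovery thus sat lower and closer together, and the highest DBCP array at the end stood alone above all others. Cby2 ran at 6.90, 7.53 and 8.52 in DBCP rats after recovery and at 7.03, 7.55 and 8.19 in corn oil rats after recovery. Its end of exposure values were 7.39, 8.62 and 10.51 in DBCP rats and 6.96, 8.14 and 9.24 in corn oil rats. With a standard deviation (SD) of 0.90 over 20 arrays, the DBCP rats at the end were the most spread group of Cby2, against an SD of 0.35 in corn oil rats after recovery (n = 19). Garin1a, on the Golgi side of acrosome building, lay between 9.10 and 10.58 around a median of 9.84 in DBCP rats after recovery, and between 9.12 and 10.36 around 9.80 in corn oil rats after recovery. Its arrays from the end of exposure lay between 10.31 and 12.42 around 10.90 in DBCP rats, and between 9.30 and 11.44 around 10.48 in corn oil rats. For Garin1a, 17 of the 19 DBCP recovery arrays were below every one of the 20 DBCP arrays of the end of exposure.

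Ubqlnl, the ubiquilin-like gene, gave 9.45, 10.20 and 11.13 as its lowest, median and highest values in DBCP rats after recovery, and 9.38, 10.17 and 10.78 in corn oil rats after recovery. At the end it gave 10.69, 11.44 and 13.01 in DBCP rats and 9.64, 10.97 and 11.78 in corn oil rats. Here 16 of 19 DBCP recovery arrays lay under all DBCP arrays of the end of exposure, while in corn oil rats 3 of 19 did so. Nt5c1b, the AMP nucleotidase, had the values 8.61, 9.20 and 10.19 in DBCP rats after recovery and 8.61, 9.29 and 9.76 in corn oil rats after recovery. At the end of exposure Nt5c1b stood at 9.84, 10.60 and 12.10 in DBCP rats and at 8.87, 10.04 and 11.10 in corn oil rats. The medians of the recovery groups of Nt5c1b differed by less than their SD of 0.44 (DBCP) and 0.36 (corn oil). Phkg2, the phosphorylase kinase subunit, was at 8.83, 9.29 and 10.28 in DBCP rats after recovery and at 8.71, 9.51 and 9.98 in corn oil rats after recovery. It was at 9.83, 10.67 and 12.17 in DBCP rats at the end and at 8.96, 10.15 and 11.02 in corn oil rats at the end. As for Garin1a, 17 of 19 DBCP recovery arrays of Phkg2 were lower than all DBCP arrays of the end of exposure.

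Ms4a14 was the most variable of the 8 within groups. In DBCP rats after recovery its lowest, median and highest values were 7.66, 8.85 and 9.96, and in corn oil rats after recovery 7.93, 8.66 and 9.56. They were 8.77, 10.00 and 11.95 in DBCP rats at the end and 8.06, 9.59 and 10.96 in corn oil rats at the end, with SDs of 0.92 and 0.80 in these 2 groups of 20. The overlap between times was wider for Ms4a14 than for Phkg2, with 8 of 19 DBCP recovery arrays below all DBCP arrays of the end. Fam229b, a gene whose role is little known, had 7.67, 8.33 and 9.45 in DBCP rats after recovery and 7.37, 8.52 and 9.05 in corn oil rats after recovery. At the end Fam229b had 8.24, 9.42 and 11.22 in DBCP rats and 7.76, 9.11 and 10.10 in corn oil rats. It too had 8 of 19 DBCP recovery arrays below all of the end.

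**Figure D1:**
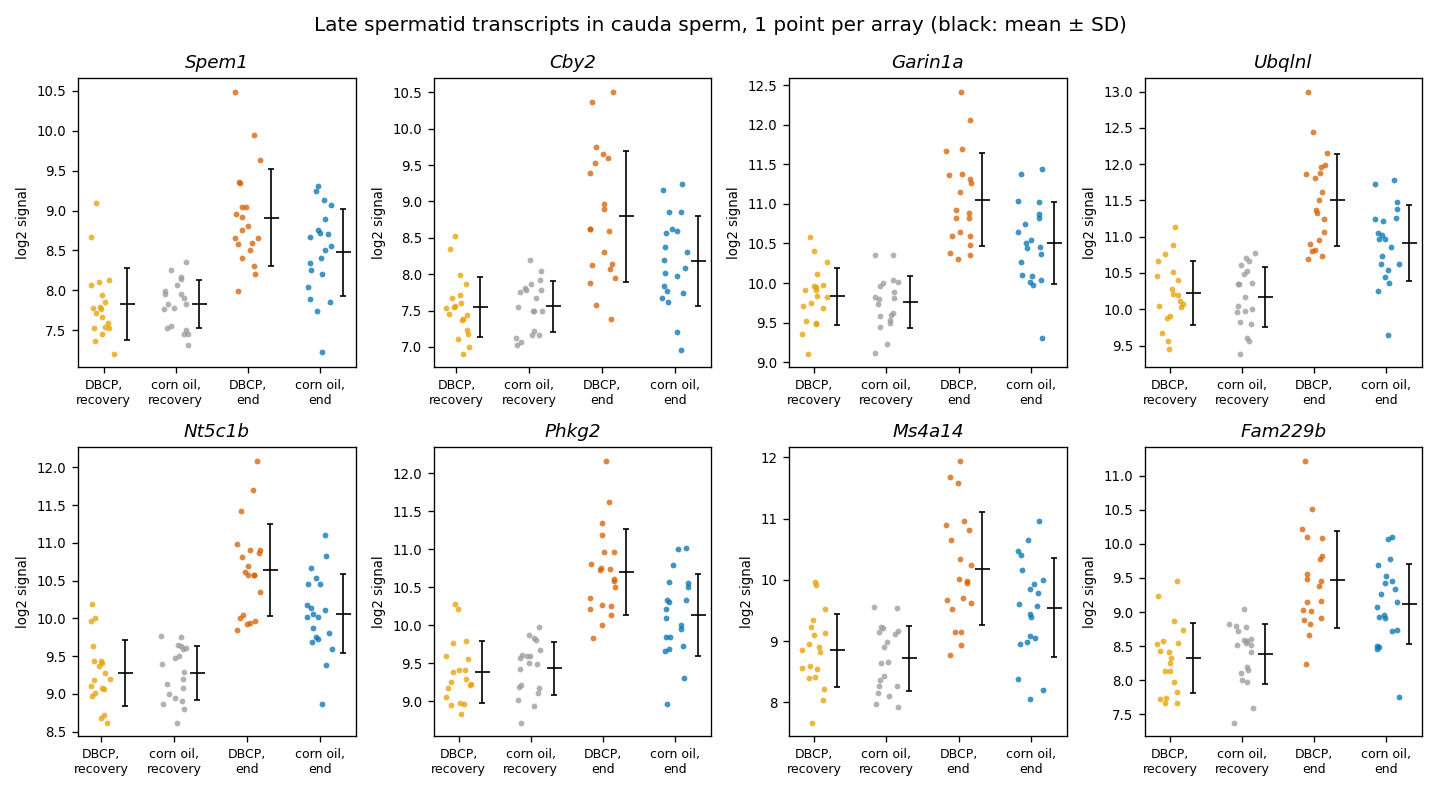
Log2 signal of each of the 8 genes on every array, in 1 panel per gene, with the groups DBCP recovery (19 arrays), corn oil recovery (19), DBCP end (20) and corn oil end (20); points are arrays and bars are the group mean with its SD. The recovery groups sit lower and closer together than the groups of the end of exposure, and the groups overlap in each panel.

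In DBCP rats, the 8 genes had signals 2.11-fold to 2.56-fold lower after recovery than when exposure ended. The genes were chosen by these falls, so the values are a description with no test. Nt5c1b differed by -1.36 ± 0.15 (log2 difference ± standard error, SE), which is a 2.56-fold lower signal, and averaged 9.28 ± 0.44 after recovery against 10.64 ± 0.61 at the end (SD, n = 19 and 20). Ms4a14 (-1.33 ± 0.23) and Phkg2 (-1.32 ± 0.15) were close behind. Ubqlnl differed by -1.28 ± 0.16, Cby2 by -1.25 ± 0.19 and Garin1a by -1.22 ± 0.15, and Fam229b (-1.14 ± 0.18) and Spem1 (-1.08 ± 0.15) moved least. The 95% confidence intervals of the 8 differences overlap one another. The genes share their arrays and vary together, so this overlap does not settle their order, which was not tested. All 19 recovery arrays were under the earlier mean for each gene except Spem1, for which 18 were. The choice of genes fixes their count of calls, so nothing is read from it: 8 of 8 were called lower, and of all probe sets 6.19% were called lower, 7.28% higher and 13.5% in either direction. Among called falls of named genes, Nt5c1b was the 4th largest, Ms4a14 the 5th and Phkg2 the 6th, and Spem1 was the 26th. Spata19 (-1.63 ± 0.25), Spata31f3 (-1.39 ± 0.21) and Akap4 (-1.37 ± 0.19), which are not of the 8, fell further.

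Corn oil rats, which never met DBCP, had lower values after recovery for the same 8 genes, by 1.54-fold to 1.78-fold. These values too stood behind the choice. The log2 differences were -0.83 ± 0.23 for Ms4a14, -0.79 ± 0.15 for Nt5c1b, -0.74 ± 0.15 for Garin1a, -0.74 ± 0.16 for Ubqlnl and -0.73 ± 0.18 for Fam229b. They were -0.70 ± 0.15 for Phkg2, -0.64 ± 0.15 for Spem1 and -0.62 ± 0.19 for Cby2. Nt5c1b, for example, averaged 9.27 ± 0.36 after recovery against 10.06 ± 0.52 at the end (SD, n = 19 and 20). All 19 recovery arrays were below the earlier mean except for Cby2 (18) and Ms4a14 (17). Here too the choice fixes the count and nothing is read from it: 8 of 8 were called lower, and of all probe sets 12.8% were called lower, 11.5% higher and 24.3% in either direction. Between 0 (Cby2, Spem1) and 3 (Nt5c1b, Ubqlnl) of 19 recovery arrays lay below all arrays of the end of exposure, of which replicate 12 was the lowest for each gene. In the other direction, between 10 (Cby2) and 14 (Nt5c1b) of the 20 arrays of the end lay above all recovery arrays. Among called falls of named genes Ms4a14 was the 3rd and Cby2 the 26th, and Spata19 (-1.08 ± 0.25) and Tnp1 (-0.87 ± 0.22) fell further than any of the 8.

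The falls in corn oil rats were larger on the arrays with the lower replicate numbers. Within replicates 1 to 10, the median difference of the 8 was -0.93 and 8 of 8 were called. Within replicates 11 to 20 it was -0.52 and 0 of 8 were called by limma, with adjusted p from 0.118 to 0.446 and 5 of 8 at an unadjusted p under 0.05. So had 5830 of 29214 probe sets in these arrays, and 37.9% of all probe sets when all arrays were used. Over all probe sets 4768 were called in the lower numbers and 385 in the higher. In DBCP rats, the medians were -1.34 in replicates 1 to 10 with 8 called and -1.17 in replicates 11 to 20 with 7 called. The labels give these numbers no meaning beyond a count of samples, and the difference between these sets of arrays was not tested.

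Leukocyte transcripts moved the other way over time. The counts of markers stand beside 7.28% of all probe sets called higher and 6.19% lower in DBCP rats. In corn oil rats these shares were 11.5% and 12.8%. Of 17 leukocyte markers 10 rose and 0 fell in DBCP rats, and 9 rose and 0 fell in corn oil rats; Cd74, the invariant chain of MHC class II, rose by 0.79 ± 0.10 in DBCP rats and by 0.77 ± 0.10 in corn oil rats. Their mean level per array ranged from 7.71 to 8.37 in DBCP rats after recovery, 7.74 to 8.54 in corn oil rats after recovery, 7.33 to 8.01 in DBCP rats at the end and 7.44 to 8.33 in corn oil rats at the end. Their part in the falls was not tested. Of 10 stroma markers, 2 rose and 0 fell in DBCP rats, and 1 rose and 1 fell in corn oil rats. Most of the 10 had differences below 0: 8 in DBCP rats (median -0.04) and 7 in corn oil rats (median -0.07). Of all probe sets, 47.4% and 61.6% lay below 0. The gene with the highest difference of the 10 in both was Dcn. Dcn, the collagen-binding proteoglycan decorin, rose by 0.49 in DBCP rats (limma adjusted p = 0.0152) and by 0.73 in corn oil rats (limma adjusted p = 1.54e-04). Of the 9 sperm markers, 7 fell in DBCP rats and 4 in corn oil rats, and 0 rose in either. Odf1, an outer dense fibre protein, stayed at -0.02 in DBCP rats and 0.01 in corn oil rats. Its mean was near the highest value of the data, 14.69, and whether signals at that level can still change was not tested.

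Compared at the end of exposure, the 8 genes were all higher on average in DBCP rats than in corn oil rats, and 0 of 8 passed the test. This comparison shares its arrays with the contrasts that chose the genes, so a high value in DBCP rats at the end belongs to both. Cby2 averaged 8.80 ± 0.90 in DBCP rats and 8.18 ± 0.61 in corn oil rats (SD, n = 20 each), a difference of 0.61 ± 0.19 (SE; limma adjusted p = 0.168). The largest difference was that of Ms4a14, 0.63 ± 0.23 (limma adjusted p = 0.227), with 15 of 20 DBCP arrays above the corn oil mean. Phkg2 differed by 0.56 ± 0.15 and Garin1a by 0.55 ± 0.14 (limma adjusted p = 0.120 for each), with 17 and 16 of 20 DBCP arrays above the corn oil mean. Ubqlnl (0.60 ± 0.16) and Nt5c1b (0.58 ± 0.15) had the same adjusted p of 0.120 in limma, with 15 and 14 of 20 arrays on the higher side. Spem1, at 0.43 ± 0.15, and Fam229b, at 0.36 ± 0.18, were the least apart, with limma adjusted p of 0.220 and 0.420. By size, Ms4a14 was the 5th highest difference among the 14506 named genes, Cby2 the 8th and Ubqlnl the 10th, whereas Spem1 was the 105th and Fam229b the 221st.

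No probe set at all was called at the end of exposure (0 of 29214, 0%), whereas 3386 (11.6%) had an unadjusted p under 0.05 in limma. Of the 8 genes, 8 had an unadjusted p under 0.05. Their median difference was 0.57 and that of all probe sets was -0.02. These arrays also stood behind the choice of genes, so nothing is read from the count or the median of the 8. In the higher replicate numbers the median of the 8 was 0.76 (0.65 to 0.81), and in the lower ones it was 0.35, between 0.00 (Fam229b) and 0.53 (Cby2). Replicates 13 and 2 of the DBCP rats at the end were the highest on the mean of the 8 genes. Limma gave these 2 arrays and 4 others an array weight under 0.5, and all 8 genes were above their group mean on each of the 6 (DBCP end replicates 2, 13 and 20, DBCP recovery replicates 7 and 15, corn oil recovery replicate 11). Without these 6 arrays, the differences of the 8 genes at the end of exposure were between 0.16 and 0.43, with a median of 0.40 and 0 of 8 called.

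After recovery, the 8 genes had means in DBCP rats close to those in corn oil rats, and 0 of 8 passed the test (0% of all probe sets were called). There were 4 on the higher and 4 on the lower side, and their median difference was 0.00. Ms4a14 differed most, by 0.13 ± 0.23, with a 95% confidence interval of -0.33 to 0.59. Garin1a (0.08 ± 0.15), Ubqlnl (0.05 ± 0.16) and Nt5c1b (0.01 ± 0.16) were slightly above 0. Spem1 (0.00 ± 0.16), Cby2 (-0.01 ± 0.19), Phkg2 (-0.05 ± 0.15) and Fam229b (-0.06 ± 0.18) were at or below it. Spem1 averaged 7.83 ± 0.45 in DBCP rats and 7.83 ± 0.30 in corn oil rats (SD, n = 19 each). The confidence intervals were wide enough to hold differences of some size: that of Nt5c1b reached from -0.30 to 0.32 and that of Cby2 from -0.39 to 0.38. Of the 8 genes 0 had an unadjusted p under 0.05 in limma, as had 3.71% of all probe sets, and the adjusted p were between 0.983 and 1.00.

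The interaction, which is the DBCP difference after recovery minus the DBCP difference at the end, was below 0 for all 8 genes and passed for 0 of 8, with 0% of all probe sets called. It equals the fall in DBCP rats minus the fall in corn oil rats, on which the genes were selected, so its values are a description. It was -0.62 ± 0.27 for Cby2, -0.62 ± 0.21 for Phkg2 and -0.57 ± 0.22 for Nt5c1b. Ubqlnl (-0.54 ± 0.23), Ms4a14 (-0.50 ± 0.32), Garin1a (-0.48 ± 0.21), Spem1 (-0.44 ± 0.22) and Fam229b (-0.41 ± 0.25) followed. Limma's adjusted p lay between 0.454 and 0.499. Beside the count of 0, an unadjusted p under 0.05 was seen for 6 of the 8 and for 3170 probe sets (10.9%), and nothing is read from the count of the 8 because of the choice of genes. A difference in fall between the treatments was not detected at this number of arrays.

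**Figure D2:**
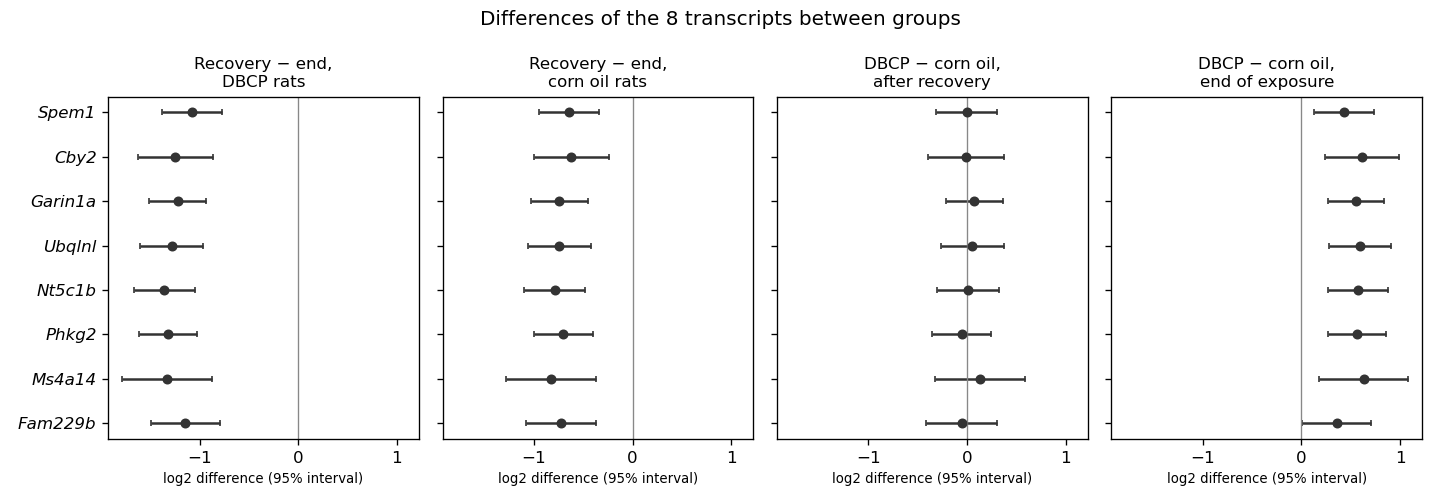
Log2 differences of the 8 genes with their 95% confidence intervals, for recovery against end of exposure in DBCP and in corn oil rats and for DBCP against corn oil after recovery and at the end. The falls over time are -1.36 to -1.08 in DBCP rats and -0.83 to -0.62 in corn oil rats, the differences after recovery lie around 0, and those at the end lie between 0.36 and 0.63.

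**Figure D3:**
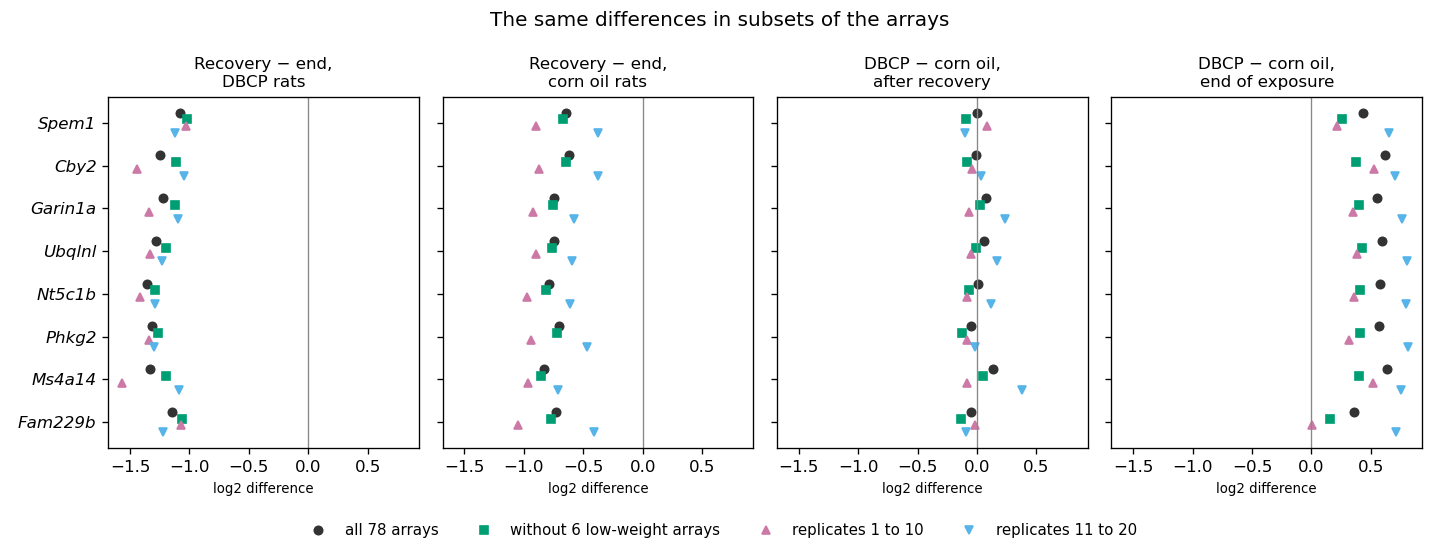
Log2 differences of the 8 genes in all arrays, in replicates 1 to 10 alone, in replicates 11 to 20 alone and without the 6 arrays of low weight, in 1 panel per comparison. In corn oil rats the median fall is -0.93 in the lower and -0.52 in the higher replicate numbers, and the median DBCP difference at the end is 0.35 in the lower and 0.76 in the higher.

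Within the groups, the 8 genes went up and down together from array to array. After the group mean was taken from each value, their 28 pairs correlated over the 78 arrays at Pearson's r between 0.784 (Ms4a14 with Fam229b) and 0.972 (Nt5c1b with Ubqlnl), with a median of 0.899. Without the 2 arrays farthest from the median, the range was 0.745 to 0.965. The points share their array, so hybridisation and the makeup of the sample enter every pair. A first principal component of these deviations, each gene scaled to its SD, held 90.6% of their variance and the second 3.98%. Garin1a with Ubqlnl reached 0.962, Nt5c1b with Phkg2 0.955 and Nt5c1b with Garin1a 0.952. All 8 genes were above their group mean on 5 of 19 DBCP recovery arrays, 7 of 19 corn oil recovery arrays, 4 of 20 DBCP end arrays and 7 of 20 corn oil end arrays. All 8 were below it on 5, 6, 8 and 6 arrays of the same groups.

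The spread between arrays was wider at the end of exposure. The median SD of the 8 genes was 0.44 in DBCP rats after recovery, 0.35 in corn oil rats after recovery, 0.62 in DBCP rats at the end and 0.54 in corn oil rats at the end. The mean of the 8 signals ran from 8.21 to 9.81 over DBCP recovery arrays, from 8.26 to 9.37 over corn oil recovery arrays, from 9.13 to 11.71 over DBCP end arrays and from 8.35 to 10.58 over corn oil end arrays. The top of the DBCP end group was replicate 13, highest in its group for each of the 8 genes but Cby2, for which replicate 2 was. Replicate 12 was the lowest array in both groups of the end of exposure.

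**Figure D4:**
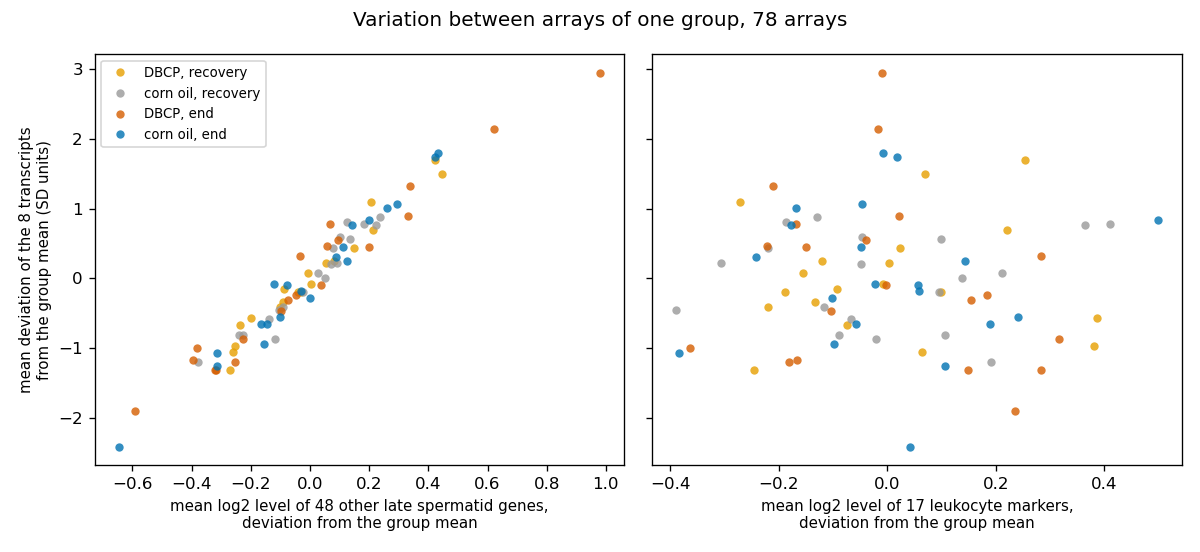
Mean deviation of the 8 genes from their group means, each divided by its SD within groups, with 1 point per array. It is set against the deviation of the mean level of 48 other late spermatid genes (left) and of 17 leukocyte markers (right). The arrays that stand farthest out are DBCP end replicate 13 at the top and corn oil end replicate 12 at the bottom.

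Over all named genes, the pattern most like the shared one of the 8 was that of Stat4 (r = 0.979, rho = 0.976 over the 78 arrays). Stat4 encodes a transcription factor known from cytokine signalling in lymphocytes and found in spermatids too. Akap4, a scaffold of the fibrous sheath of the tail, followed at r = 0.976, then Crisp2 (0.976), a secreted cysteine-rich protein of the acrosome and tail, Dnajb3 (0.974), a testis co-chaperone, and Lrrc46 (0.972). The median r of named genes was -0.110. These values describe likeness between arrays after the group means were removed. Over time Stat4 differed by -1.16 ± 0.17 in DBCP rats and by -0.63 ± 0.17 in corn oil rats, and both passed the test (limma adjusted p = 7.57e-07 and 0.00553). The single gene nearest to each of the 8 was Stat4 for Ms4a14 (r = 0.953), Akap4 for Ubqlnl (0.978), Spata3 for Fam229b (0.959), Spata32 for Cby2 (0.946), Spata18 for Phkg2 (0.958) and Gapdhs, the glycolytic enzyme of the sperm tail, for Spem1 (0.946). For Nt5c1b and for Garin1a it was Ubqlnl.

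The mean deviation of the 8 followed the mean of the late spermatid genes (r = 0.977, rho = 0.974) and that of the sperm markers (r = 0.969, rho = 0.967) over the 78 arrays, and less so the spermatocyte markers (r = 0.645, rho = 0.598). The late spermatid and sperm marker lists share genes, Akap4 and Tnp1 among them, so their values are not independent. With the markers of other cells the mean deviation of the 8 had r of -0.04 for leukocytes, 0.09 for epididymal epithelium, 0.16 for red cells, -0.14 for stroma and -0.18 for Sertoli and Leydig cells. So within a group, arrays with a high signal of the 8 were arrays with a high signal of other spermatid genes, and the leukocyte level showed next to no relation to them.

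The counts of relatives that passed over time stand against 13.5% of all probe sets called in DBCP rats and 24.3% in corn oil rats, and with 1 to 9 genes a family no share is set apart from these. The list around Garin1a held its relatives Garin1b, Garin2, Garin3 and Garin4 and the GTPases Rab2a and Rab2b. In DBCP rats the 4 GARIN genes fell and neither GTPase passed: Garin2 (-0.92, limma adjusted p = 1.49e-05), Garin3 (-0.44, limma adjusted p = 4.65e-05), Garin1b (-0.42, limma adjusted p = 8.95e-04) and Garin4 (-0.21). In corn oil rats Garin2 (-0.44) and Garin4 (-0.14) fell, Garin1b (-0.20) and Garin3 (-0.17) did not pass, and Rab2a rose by 0.53. The MS4A relatives of Ms4a14 fell in no case in DBCP rats, where 2 of 9 rose: Tmem176a by 0.34 (limma adjusted p = 0.00149) and Tmem176b by 0.23 (limma adjusted p = 0.00644), proteins known from myeloid cells. In corn oil rats Tmem176a (0.40 ± 0.08) and Tmem176b (0.23 ± 0.06) rose again and Ms4a10 (-0.16 ± 0.04) fell. Of the nucleotidases near Nt5c1b, 8 were on the array. In DBCP rats Nt5e (0.31) and Nt5dc1 (0.17) rose while Nt5m (-0.16) and Nt5c3b (-0.17) fell, and in corn oil rats Nt5e (0.22), Nt5c3a (0.22) and Nt5dc1 (0.14) rose.

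Of 3 ubiquilins, 2 rose in corn oil rats: Ubqln2 by 0.40 (limma adjusted p = 0.00154) and Ubqln1, which binds SPEM1 in the mouse, by 0.25 (limma adjusted p = 0.0361). Ubqln4 differed by 0.12 in corn oil rats (limma adjusted p = 0.146), and in DBCP rats 0 of 3 passed. Among 8 genes of phosphorylase kinase and glycogen breakdown beside Phkg2, 0 passed in DBCP rats, and in corn oil rats Pygb, the brain form of glycogen phosphorylase, rose by 0.27 while Phka1, a regulatory subunit of the kinase, fell by 0.14. Phkg1, the muscle form of the catalytic subunit, differed by -0.05 in DBCP rats and -0.12 in corn oil rats, and neither passed. Cby1, the chibby relative of Cby2, differed by -0.04 in DBCP rats and -0.08 in corn oil rats without passing. Ranbp17, the partner of SPEM1, had 0.10 in DBCP rats and 0.26 in corn oil rats (limma adjusted p = 0.0582), and did not pass in either. No relative passed in DBCP against corn oil at either time.

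Other late spermatid genes shared the direction of the 8. Of 48 such genes on the array, 33 fell and 0 rose in DBCP rats, with a median difference of -0.46 where all probe sets had 0.01. In corn oil rats 27 fell and 0 rose, with a median of -0.23 where all probe sets had -0.04, and in replicates 11 to 20 alone 0 were called. Of all probe sets, 6.19% were called lower in DBCP rats and 12.8% in corn oil rats. This list was drawn up with earlier results of these data known. The largest falls in DBCP rats were those of Spata19, a mitochondrial protein of the sperm midpiece, Akap4 and Spata32 (-1.31 ± 0.17). In corn oil rats Spata19 and Tnp1, a transition protein of chromatin condensation, were followed by Spa17 (-0.77 ± 0.17), a protein of the fibrous sheath. At the end of exposure, 46 of the 48 were higher in DBCP rats than in corn oil rats, with a median of 0.28 and 0 passing, and after recovery 22 were higher and 26 lower, with a median of -0.00247 and 0 passing. The interaction was below 0 for 43 of the 48, with a median of -0.32 and 0 passing. Of all probe sets, 62.0% were below 0 at the end, 42.1% after recovery and 38.5% in the interaction. The 48 genes were read on the same arrays, so the counts by sign do not stand for independent genes. The members' medians of -1.27 and -0.74 over time in DBCP and corn oil rats stand beside those of the 48. Since the 8 were picked for large falls, the 2 sets of sizes are not compared.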

How the data were processed

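RNA of cauda epididymal sperm from 78 samples was hybridised to 1 biotin-labelled whole-transcript array each, per the labels. The authors deposited log2 values per probe set for 29214 probe sets. Limma is the only tool in the submitters' processing notes, and no source used here gives the background correction or normalization. No further scaling was applied.

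A group means model was fitted with limma 3.58.1 in R 4.3.3 to all 4 groups, with 5 contrasts and Benjamini-Hochberg adjustment over all probe sets at 0.05. The fit was also run on simulated data with noise drawn independently for each value. The arrays here share variation, so nothing about these data is read from that run. Probe sets were named by the platform annotation: 15310 had 1 symbol, 323 several and 13581 none, and 15279 matched RefSeq by Entrez identifier. Precision is limited by how many arrays a group has.

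The 8 genes and the gene lists were chosen with earlier results of these data known. Named genes are the 8 members, up to 3 passing relatives per family, up to 3 late spermatid genes per contrast and direction (or the 2 brightest), the 5 genes of most similar pattern, the nearest gene of each member and the 2 brightest markers per list. Other genes (Spata31f3, Phkg1, Cby1, Ranbp17, Garin4, Nt5m and Nt5c3b among them) were added after their values were seen.

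Other settings tried were array weights, quantile normalization, median centring of each array, leaving dim probe sets out, a trended variance prior, fitting only the arrays of 1 contrast, a replicate block, replicates 1 to 10 or 11 to 20 alone, a threshold of 0.10 and leaving out arrays.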

Additional observations from a re-analysis of the deposited data

How the results depend on the processing

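Under the other settings 580 of 602 results kept their direction and side of the threshold. For a count of calls this means its rough size, and for the likeness to the 8 its highest r, not its list of genes. Of the rest, 11 changed sign and 11 lost their call, the last all in replicates 11 to 20 alone. With single arrays left out 3854 of 3900 kept direction and side and 46 changed sign. Of the 8 genes, 8 were called lower over time in DBCP rats and in corn oil rats under every setting except replicates 11 to 20 alone, where 7 and 0 were; the 27 late spermatid genes called in corn oil rats then dropped to 0 too. Among 29214 probe sets 385 were called there. With each array left out, the late spermatid calls ran from 24 to 28 in corn oil rats and from 32 to 34 in DBCP rats. At the end of exposure 0 of 8 were called under each setting run, and the lowest adjusted p with 1 array left out was 0.0535 (Phkg2).

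After recovery, differences between DBCP and corn oil rats near 0 changed sign. Under quantile normalization Spem1 was at 0.0073. Nt5c1b was at -0.0029 with median centring, -0.0373 with array weights and -0.0671 without the 6 arrays of low weight, where Ubqlnl was at -0.0102. In replicates 1 to 10 Ms4a14 was at -0.0847, Nt5c1b at -0.0839, Ubqlnl at -0.0490, Garin1a at -0.0706 and Spem1 at 0.0869, and in replicates 11 to 20 Cby2 was at 0.0320. With each array left out, Cby2 ran from -0.0633 to 0.0271, Nt5c1b from -0.0400 to 0.0478 and Spem1 from -0.0719 to 0.0330. The cause was not tested.

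The samples were treated as unpaired. Deviations of same-numbered arrays correlated at r from -0.488 to 0.568. The median r was 0.06 at the end, -0.03 after recovery, -0.08 over time in corn oil rats and -0.06 in DBCP rats. Limma's estimate of the correlation within replicate numbers was -0.013. Arrays of unlike numbers were not compared. With a replicate block the members' medians were 0.57, 0.00, -0.52, -0.74 and -1.27 in the order end, recovery, interaction, corn oil over time and DBCP over time. The block changed no call of the 8 genes, and the late spermatid calls in corn oil rats went from 27 to 26. Each of the 8 genes had 1 probe set, so the planned change of probe set could not be run. Precision limits the comparison after recovery (19 against 19 arrays), where the 95% confidence intervals of the 8 genes reached from -0.41 (Fam229b) at the lowest to 0.59 (Ms4a14) at the highest.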
